A study of Mus musculus with 27 samples.

Results

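The chromosome 2 olfactory receptors described here are the genes whose array symbol is Olfr followed by a number in the range given mainly to that chromosome's large clusters of class II receptors. Of 16675 genes named on the array, 153 met this rule, each with 1 probe on it. The array also holds 536 other olfactory receptor genes, which served for comparison. The symbols ran from Olfr992 to Olfr1317. In RefSeq's gene table of the mouse assembly GRCm38.p6, which was used for names and gene order, 152 were found by symbol and Olfr1125 as a synonym of Olfr1124. The table places all 153 on chromosome 2 and lists each as protein coding. In gene order they fell into 2 runs, 129 genes from Olfr992 to Olfr1272 and 24 genes from Olfr1276 to Olfr1317.

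RNA came from the olfactory mucosa of female FVB mice 25 days old. The occluded group was mucosa behind a nostril closed by cautery, and the open group was mucosa behind the untreated nostril of the same individuals. The normal group came from other mice, which received a sham cautery. Each group had 3 biological replicates with 3 arrays each, 27 arrays in all, and the labels do not say whether a replicate pooled animals.

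Olfactory receptors are G protein-coupled receptors that bind odor molecules on the cilia of olfactory sensory neurons. Each mature neuron expresses 1 receptor gene, from 1 of its alleles, so the RNA of a receptor in whole mucosa depends both on how many neurons chose it and on how much of it each neuron makes. In bulk mucosa fewer neurons and less RNA per neuron cannot be told apart. Class II receptors, the larger class in mammals, lie in clusters on many chromosomes, and the mouse has one of its large arrays of such genes on chromosome 2. Receptors of a cluster are related by duplication, so a probe can also read relatives, and each value below belongs to a probe first and to its gene with that uncertainty.

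The relatedness can be seen at the start of the coding sequence. RefSeq gives 133 start windows (GRCm38.p6, C57BL/6J) for 131 of the 153 genes. In 95 of the 133, or 71.4%, the gene model begins at the start codon ATG, against 72.6% for all olfactory receptors and 5.83% of all 32851 windows. The first 50 coding bases are shown for 6 of them whose probes are described below. All 6 hold a stretch matching GANTTNAT, so they do not show how common it is. The stretch matching GANTTNAT on the coding strand is in capitals.
Olfr1151, chr2:87857177-87857226, plus strand: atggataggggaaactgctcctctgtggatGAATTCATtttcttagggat
Olfr1109, chr2:87093346-87093395, minus strand: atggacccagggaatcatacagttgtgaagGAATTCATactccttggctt
Olfr1263, chr2:90014932-90014981, plus strand: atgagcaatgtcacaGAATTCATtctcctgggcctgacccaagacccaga
Olfr1243, chr2:89528359-89528408, minus strand: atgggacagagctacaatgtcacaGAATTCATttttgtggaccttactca
Olfr1212, chr2:88958468-88958517, plus strand: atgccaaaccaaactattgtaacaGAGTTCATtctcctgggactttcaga
Olfr1283, chr2:111368634-111368683, plus strand: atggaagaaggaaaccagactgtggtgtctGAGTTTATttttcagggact
That stretch was present in 49 of the 95 members whose model begins at ATG (51.6%). It was in 243 of 685 such models of all olfactory receptors (35.5%) and in 250 of all 1915 such models (13.1%). Each set contains the one before it, so nearly all matches in the last set are those of olfactory receptors.

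For models that begin ahead of the start codon, the 250 bases before the annotated start are shown for the receptors with the smallest p on each side of 0 that have such a model, Olfr1161 and Olfr1208 (higher on the occluded side) and Olfr1140 (lower). Matches on either strand to the words searched, which are named after the sequences, are in capitals.
Olfr1161, chr2:88024452-88024701, plus strand: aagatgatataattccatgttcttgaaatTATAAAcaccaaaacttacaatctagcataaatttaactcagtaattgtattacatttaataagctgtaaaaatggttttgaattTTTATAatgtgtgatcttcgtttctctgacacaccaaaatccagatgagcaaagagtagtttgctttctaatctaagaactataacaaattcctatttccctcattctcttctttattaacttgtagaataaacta
Olfr1208, chr2:88897649-88897898, minus strand: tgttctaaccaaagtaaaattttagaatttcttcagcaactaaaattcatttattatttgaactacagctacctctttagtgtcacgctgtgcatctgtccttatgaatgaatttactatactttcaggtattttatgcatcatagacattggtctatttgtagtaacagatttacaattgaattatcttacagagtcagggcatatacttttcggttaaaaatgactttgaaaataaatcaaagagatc
Olfr1140, chr2:87745911-87746160, plus strand: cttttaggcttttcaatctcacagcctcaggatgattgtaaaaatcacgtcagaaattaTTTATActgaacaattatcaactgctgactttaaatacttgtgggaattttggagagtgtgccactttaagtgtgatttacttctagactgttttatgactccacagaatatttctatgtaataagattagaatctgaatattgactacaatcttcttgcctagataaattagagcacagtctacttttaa
Olfr1161 has 2 matches and Olfr1140 has 1, each to TATAAA. Over the members' 133 windows of 250 bases, TATAAA was present in 46.6%, against 39.4% of 944 windows of all olfactory receptors and 12.4% of all windows. The word TAATGA, of the kind bound by homeodomain factors, was present in 27.8% of the members' windows, 25.3% of those of all receptors and 8.59% of all windows. For the related word TAATTA these shares were 25.6%, 18.1% and 4.84%. The full palindrome of the Ebf (Olf-1) factors was searched in the same way, with every fixed base required to match. It was in 0% of the members' windows, 0.424% of those of all receptors and 0.779% of all windows. Sites that depart from the palindrome were not searched, so these shares do not show how common Ebf sites are. The palindrome is itself rich in G and C, and the part of GC content in its shares was not tested. The words rich in A and T came with a low GC content: its median was 31.2% before members' starts, 34% for all olfactory receptors and 52.4% over all windows. Matches to TATAAA can share bases with those to TAATTA, and for a model that begins at ATG the window may not be the true promoter.

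A probe was called dim on an array when its deposited intensity lay below that array's noise limit, which is 3 times the root mean square of the array's negative values and lay between 11.6 and 24.1. Median intensity ranged from 123 to 274 over the arrays, and between 8.57% and 19.8% of an array's probes were dim. Of the 153 receptors, 104 (68.0%) were above the limit on all 27 arrays, 44 were below it on some and 5 (Olfr1219, Olfr1259, Olfr1279, Olfr1284 and Olfr1303) on all. The number above the limit on all 9 arrays of a group was 109 in occluded, 108 in open and 108 in normal mucosa. None was saturated, whereas Omp, the defining marker of mature neurons in this tissue, reached saturation on 26 of 27 arrays and gives no fold. For the receptors, the median standard deviation (SD) was 0.36 on the log2 scale between arrays of a replicate and 0.39 between replicates of a group. It was 0.24 and 0.34 for the 104 receptors above the limit throughout, and 1.03 and 0.74 for the other 49. Values below are log2 of quantile-normalized intensity, and differences are given with their standard error (SE).

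The first comparison asked how receptor RNA behind the closed nostril differed from that on the open side of the same mice. More receptors lay above 0 than below it, 96 against 57, with a median log2 difference of 0.12 and a range from -1.18 to 1.27. None of the 153 passed an adjusted p of 0.05 in limma, where 66 of 29922 probes, 0.221%, passed. With an unadjusted p under 0.05 there were 15 receptors. Of these, 11 lay higher on the occluded side (7.19%, against 3.51% of all probes) and 4 lower (2.61%, against 2.69%). The 536 other receptors had a median of 0.10, with 338 above 0, 8.96% higher and 2.05% lower at that p; the difference between both sets of receptors was not tested. The median over all probes was 0.0040. The split of 11 higher and 4 lower depended on the pairs and the normalization. It was 20 and 6 without pair 2, 9 and 9 without pair 3, and 2 and 2 without normalization between arrays. The shares of all probes at that p were not counted for these alternatives. In 105 of 153 receptors the 95% interval of the difference lay within -1 to 1, so that a change of more than 2-fold in either direction lay outside it. Of these, 93 were among the 104 receptors above the noise limit on all arrays. The intervals are those of single genes and are not adjusted for the number of genes.

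**Figure D1:**
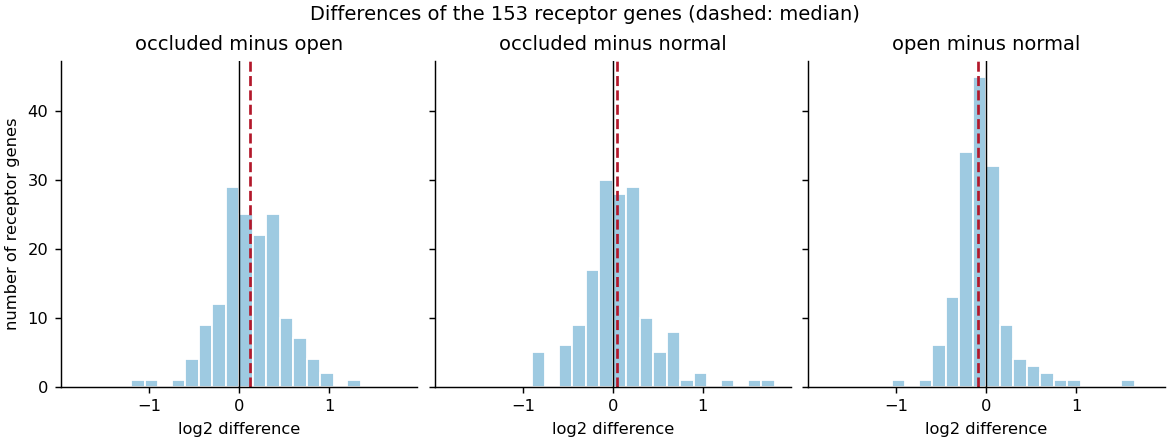
Histograms of the log2 differences of the 153 receptor genes (x axis, log2 difference; y axis, number of genes) in the 3 comparisons, with a solid line at 0 and a dashed line at the median. The medians are 0.12 for occluded minus open, 0.05 for occluded minus normal and -0.09 for open minus normal.

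The receptor with the smallest p was Olfr1161, which lay higher on the occluded side. Its log2 intensity was 6.90, 6.47 and 6.62 in occluded replicates 1, 2 and 3, against 5.90, 5.46 and 4.79 on the open side and 5.90, 5.52 and 5.44 in normal mucosa. All 3 occluded values lay above all 6 others. The difference from open was 1.27 ± 0.23 (SE), or 2.42-fold, with a 95% interval from 0.75 to 1.80 (limma adjusted p = 0.11). The deposited intensities had a median of 91.5 over the 9 occluded arrays (47.4 to 151), 31.1 over the open arrays (25.3 to 100) and 62.5 over the normal arrays (15.4 to 101), so single arrays of the groups overlapped. It passed in 1 of 17 alternative analyses, without the dimmest 30% of probes (adjusted p = 0.033), and its adjusted p ranged from 0.033 to 0.99995. The receptors next to Olfr1161 in gene order, Olfr1158 and Olfr1163, differed by -0.08 ± 0.41 and -0.27 ± 0.62, and both were dim on some arrays. Next beyond them, Olfr1157 (-0.10 ± 0.17) and Olfr1164 (0.52 ± 0.30) were above the noise limit on all arrays.

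Olfr1208 measured 9.27, 8.55 and 8.73 in the occluded replicates, 8.44, 8.0 and 7.91 in the open ones and 8.41, 7.92 and 8.42 in the normal ones. All 3 occluded values lay above the rest. Its difference from open was 0.74 ± 0.19 (adjusted p = 0.36). Olfr1093 measured 7.71, 8.12 and 8.06 occluded, 7.33, 7.57 and 7.31 open, and 7.38, 7.44 and 7.67 normal. Here too the occluded values did not overlap the others, and the difference from open was 0.56 ± 0.15 (adjusted p = 0.37).

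The further receptors on the higher side by the rule were Olfr1242 (0.50 ± 0.15), Olfr1263 (0.59 ± 0.18), Olfr996 (0.46 ± 0.19), Olfr1198 (0.62 ± 0.28), Olfr1145 (1.03 ± 0.39) and Olfr1283 (0.99 ± 0.30). Their limma adjusted p ranged from 0.48 to 0.83. Olfr1283 was dim on 22 and Olfr1145 on 14 of 27 arrays, and with values under 16 set to 16 their differences shrank to 0.04 and 0.07. Olfr1242, Olfr1263 and Olfr1198 were above the noise limit throughout. Without overlap between the sides there were 11 receptors higher (7.19%, against 3.75% of all probes) and 4 lower (2.61%, against 2.94%).

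On the lower side the smallest p was that of Olfr1151. It measured 5.52, 5.74 and 5.25 in the occluded replicates, 5.87, 6.4 and 6.04 in the open ones and 6.53, 6.05 and 6.23 in the normal ones. Every occluded value lay below every other value. The difference from open was -0.60 ± 0.17 (limma adjusted p = 0.45). Olfr1109 measured 3.76, 4.72 and 4.18 occluded, 4.59, 5.68 and 5.92 open, and 3.72, 4.79 and 5.29 normal. The sides overlapped, although the occluded value was the lower one in each pair. Its difference was -1.18 ± 0.37 (adjusted p = 0.52), with 2 of 9 occluded arrays dim.

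Olfr1140 measured 8.97, 9.18 and 9.21 occluded, 9.43, 9.89 and 9.57 open, and 9.85, 9.06 and 9.57 normal. The sides did not overlap, but the normal values ran across both of them. Its difference was -0.51 ± 0.19 (adjusted p = 0.67). The next on this side were Olfr1121 (-0.40 ± 0.15), Olfr1052 (-0.55 ± 0.25), Olfr1231 (-0.41 ± 0.21), Olfr1313 (-0.44 ± 0.24) and Olfr1134 (-0.43 ± 0.24), with adjusted p between 0.67 and 0.92.

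**Figure D2:**
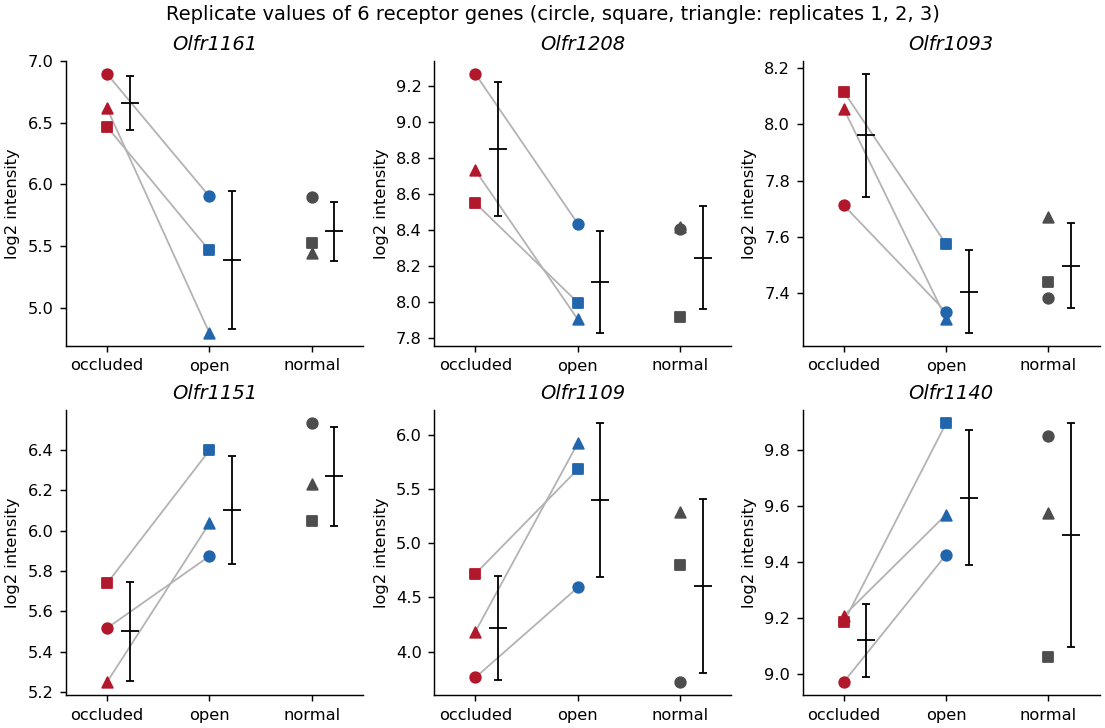
Log2 intensity (y axis, own scale in each panel) of 6 receptor genes in the 3 occluded, open and normal replicates (x axis). Grey lines join the 2 sides of a pair, and bars give the mean ± SD (n = 3). Olfr1161, Olfr1208 and Olfr1093 lie higher and Olfr1151, Olfr1109 and Olfr1140 lower on the occluded side in each of the 3 pairs. They were picked as the 3 with the smallest p in each direction of occluded against open, so like signs over the pairs follow in part from that choice.

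The shift of the receptors as a group was uneven over the pairs. The median difference of occluded from open was 0.06 in pair 1, 0.05 in pair 2 and 0.39 in pair 3, with 86, 83 and 115 of the 153 receptors above 0. The other receptors gave 0.05, -0.03 and 0.27, and all probes 0.02, 0.01 and 0.0057. Without pair 3 the members' median was 0.01, without pair 1 it was 0.18 and without pair 2 it was 0.21. The members' median log2 intensity was 7.36, 7.13 and 7.39 in occluded replicates 1, 2 and 3. It was 7.21, 7.23 and 7.04 in the open replicates and 7.23, 7.10 and 7.37 in the normal ones. Open replicate 3 was thus the lowest, as it was for the other receptors (7.11). In all 3 pairs 38 receptors (24.8%) lay higher on the occluded side and 7 (4.58%) lower. Among other receptors these shares were 23.3% and 8.96%, and among all probes 13.8% and 12.6%.

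**Figure D3:**
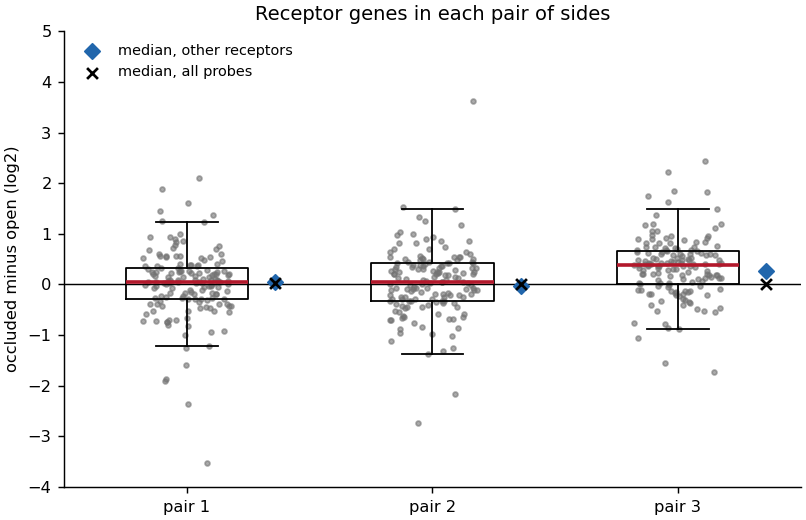
Difference of occluded from open (y axis, log2) for each of the 153 receptor genes (grey points) in the 3 pairs of sides, with boxes for the quartiles, a red median line and whiskers to 1.5 times the interquartile range. Diamonds and crosses give the medians of other receptors and of all probes; the members' median is 0.06, 0.05 and 0.39 in pairs 1, 2 and 3.

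Pair 3 also differed in genes of other cells, as did pair 1 in other lists. The 8 measured genes of Bowman's glands, which secrete the mucus, had a median of -1.43 there with 0 above 0, against -0.08 and -0.04 in pairs 1 and 2. The 10 markers of horizontal basal cells, which act as stem cells in reserve, had one of -0.43, against -0.16 and -0.10. The 14 mature neuron genes had medians of 0.20, 0.32 and 0.29 in pairs 1, 2 and 3. Other lists set pair 1 apart. In pairs 1, 2 and 3 the medians were 0.25, -0.34 and -0.28 for immune genes. For bone and cartilage they were 0.38, -0.31 and -0.15. The medians of muscle and blood genes also lay above 0 in pair 1 only. Averaged over its 8 genes, the log2 level of the gland list lay between 11.5 and 12.6 in the occluded replicates and between 11.8 and 13.2 in the open ones, and no gene of any marker list was below the noise limit on all arrays. The part of these differences in the receptors' shift was not tested. Over the 3 pairs the fitted medians were 0.28 for mature neuron genes (10 of 14 above 0), -0.15 for immature neuron genes (3 of 14), -0.20 for horizontal basal cells (1 of 10) and -0.31 for Bowman's glands (0 of 8). They were -0.10 for progenitor and cell cycle genes, -0.05 for sustentacular cells, -0.13 for immune cells and -0.10 for the 2 blood genes measured. For respiratory epithelium, vomeronasal neurons, bulb or brain, muscle and bone the medians lay between -0.03 and 0.04. No gene of these lists of cell types passed an adjusted p of 0.05 in limma. At an unadjusted p under 0.05 the most were 4 of 14 mature neuron genes, all higher, where 3.51% of all probes lay higher.

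Genes that act with the receptors were taken as lists. Of 19 measured genes of olfactory transduction, which carry the receptor signal through cAMP, 12 lay above 0 on the occluded side with a median of 0.24. None passed higher and 1 passed lower: Slc8a1, which exchanges sodium for calcium across the membrane, fell by 1.41 ± 0.21 in log2 (adjusted p = 0.046 in limma). This call was lost in several settings: no probe on the array passed without pair 1, without normalization between arrays or when the pair was a fixed replicate block, and none passed lower with no replicate block. At an unadjusted p under 0.05, 7 of the 19 lay higher and 1 lower, against 3.51% and 2.69% of all probes. This list shares genes with that of mature neurons. The 4 mature neuron genes at that p, Cnga2, Adcy3, Stoml3 and Gnal, are among these 7. After Slc8a1, the smallest p-values of the transduction list were those of Ric8b, Pde4a and Slc24a4. Ric8b, which aids folding of Golf, differed by 0.86 ± 0.24 (limma adjusted p = 0.40). The phosphodiesterase gene Pde4a differed by 0.71 ± 0.20 (adjusted p = 0.42) and the exchanger gene Slc24a4 by 0.54 ± 0.17 (adjusted p = 0.52). Of 20 measured genes of receptor choice and trafficking, 9 lay above 0 and 11 below, with a median of -0.05 and 0 passing. The smallest p-values were those of the transcription factor genes Ebf4 (0.33 ± 0.15, adjusted p = 0.83) and Ebf3 (0.42 ± 0.20, adjusted p = 0.84), the histone demethylase gene Kdm1a, listed as Aof2 (-0.18 ± 0.13, adjusted p = 0.97), and Reep1, which helps receptors to the membrane (0.23 ± 0.17, adjusted p = 0.97).

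Position and brightness were set beside the differences. The run of 129 genes had a median of 0.12 with 79 above 0, and the run of 24 a median of 0.13 with 17 above 0. Over 151 pairs of neighbouring measured receptors, the differences of neighbours had a Pearson r of -0.05 and a Spearman rho of 0.04. These neighbours share arrays and, in part, sequence. The SD of the differences over receptors was 0.29 among the 104 above the noise limit throughout (median 0.12) and 0.47 among the other 49 (median 0.14), so the larger differences were more often those of dim probes.

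**Figure D4:**
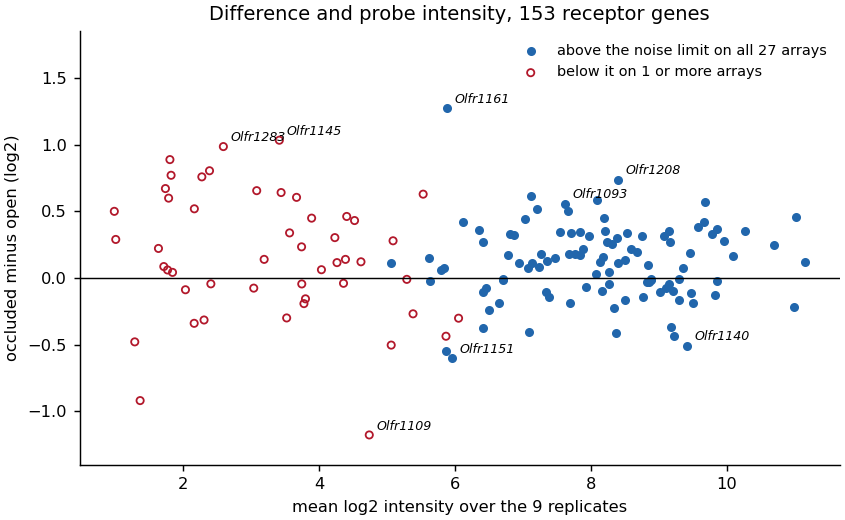
Difference of occluded from open (y axis, log2) against mean log2 intensity over the 9 replicates (x axis) for the 153 receptor genes. Filled points are the 104 above the noise limit on all 27 arrays and open points the 49 below it on 1 or more; Olfr1161 is the filled point at 1.27.

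The second comparison was of occluded with normal mucosa, which came from sham-treated mice. It shares the occluded samples with the first, so its values are given beside those above and are not further support for them. The receptors had a median of 0.05, with 86 above 0 and 67 below, and the other receptors one of 0.03. None of the 153 passed in limma, where 2 of 29922 probes did (0.00668%). At an unadjusted p under 0.05 there were 6 receptors higher (3.92%, against 1.61% of all probes) and 2 lower (1.31%, against 1.23%). Without overlap of the groups there were 9 higher (5.88%, against 3.58%) and 1 lower (0.654%, against 3.08%). Without normal replicate 1 the median was 0.12, and without normal replicate 2 it was -0.02. It was 0.01 without pair 1 and 0.09 without pair 2.

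Olfr1212 had the smallest p. It measured 4.47, 3.86 and 4.32 in the occluded replicates, 3.99, 3.01 and 3.73 in the open ones and 1.95, 2.40 and 3.25 in the normal ones. The occluded values lay above all normal values and overlapped the open ones. Its difference from normal was 1.68 ± 0.36 (limma adjusted p = 0.49). This probe was dim on 2 occluded, 4 open and 6 normal arrays of 9, and its difference ranged from 0.25 to 2.04 over the alternatives. Olfr1161 differed from normal by 1.04 ± 0.29 (adjusted p = 0.97), Olfr1208 by 0.60 ± 0.25 and Olfr1093 by 0.46 ± 0.19, the last 2 with adjusted p = 0.99999.

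Olfr1243 (3.82, 3.93 and 3.37 in the occluded replicates, 2.62, 1.76 and 3.11 in the normal ones) did not overlap, but it was dim on all 9 normal arrays. No fold is given for it, since its occluded mean did not exceed the level at which a probe leaves the noise. Olfr996 differed by 0.52 ± 0.24. Olfr1283 and Olfr1215 were dim on 22 and 21 of 27 arrays, and on 8 of 9 normal arrays each, so their differences are not given.

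On the lower side Olfr1151, whose values are given above, differed by -0.77 ± 0.22 with no overlap. Olfr1313 measured 6.09, 4.93 and 5.34 in the occluded replicates and 6.15, 6.09 and 6.53 in the normal ones. Its occluded replicate 1 overlapped the normal values, and its difference was -0.80 ± 0.30. Olfr1278 measured 3.58, 2.56 and 3.35 against 4.42, 4.0 and 3.41 in normal mucosa, a difference of -0.78 ± 0.40 with overlap and with 14 of 27 arrays dim. Olfr1180 was dim on 24 of 27 arrays. Olfr1121 (-0.30 ± 0.19), Olfr1140 (-0.37 ± 0.24), Olfr1052 (-0.47 ± 0.33), Olfr1134 (-0.43 ± 0.31) and Olfr1044 (-0.46 ± 0.46) completed the named receptors, and each adjusted p on this side was 0.99999. Here the mature neuron genes had a median of 0.34 (10 of 14 above 0), the transduction genes one of 0.23 (12 of 19) and the receptor choice genes one of 0.01 (10 of 20), with none passing in limma.

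The third comparison asked whether the open side differed from normal mucosa. It shares samples with both others. The receptors had a median of -0.09 with 53 above 0 and 100 below, and the other receptors one of -0.05 with 194 of 536 above 0. Without normalization between arrays the members' median turned to 0.03, with that of all probes at 0.10, so it lay below the median of all probes in both settings. Without pair 3 it was also 0.03, against 0.0086 for all probes. None of the 153 passed in limma and 0% of 29922 probes did. At an unadjusted p under 0.05 there was 1 receptor higher (0.654%, against 0.779% of all probes) and 1 lower (0.654%, against 0.789%). Without overlap there were 0 higher (against 2.09%) and 5 lower (3.27%, against 2.23%). Without normal replicate 1 the median was -0.03, and without normal replicate 2 it was -0.17; without pair 1 it was -0.16.

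The receptor lower at that p was Olfr1242. It measured 7.38, 7.04 and 7.58 on the open side, 7.83, 7.86 and 7.73 in normal mucosa and 7.92, 7.58 and 8.0 on the occluded side. The open values lay below all 3 normal values. Its difference was -0.47 ± 0.19 (limma adjusted p = 0.99998). Olfr1164 (-0.49 ± 0.38), Olfr1241 (-0.65 ± 0.35) and Olfr1313 (-0.37 ± 0.30) also lay lower without overlap, as did Olfr1179 (-0.42), dim on 10 of 27 arrays and named after its value was seen. Olfr1263 (-0.29 ± 0.23), Olfr1044 (-0.36 ± 0.46) and Olfr1278 (-0.48 ± 0.40) overlapped.

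The receptor higher was Olfr1212 (1.04 ± 0.36), with the dim arrays given above. Olfr1109 differed by 0.80 ± 0.47, Olfr1270 by 0.52 ± 0.36, Olfr1055 by 0.34 ± 0.30, Olfr1090 by 0.18 ± 0.38 and Olfr1122 by 0.18 ± 0.29, all with overlap of the groups. Olfr1215, Olfr1243, Olfr1302 and Olfr1247 were dim on 20 to 23 of 27 arrays, and Olfr1279 and Olfr1284 on all, so their differences are not given. The 95% interval lay within -1 to 1 for 99 of the 153 receptors, against 88 in the comparison of occluded with normal mucosa. Among the 104 above the noise limit on all arrays these counts were 93 and 84.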

How the data were processed

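Gene expression was measured on 27 arrays. Per the labels' protocols, total RNA was amplified by in vitro transcription and labelled with Cy5. The values are linear probe intensity as deposited by the authors, with 29922 probes; how they were scanned, background corrected or normalized is not stated in any source used here. Some values lie below 0. Gene symbols came from the array's annotation table.

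Any value not above 0 was replaced by the lowest positive one (0.912). Arrays were quantile normalized because their log2 medians spanned 1.15, more than the limit of 0.2. The 3 arrays of a biological replicate, read from the titles, were averaged after log2. limma 3.58.1 (R 4.3.3, statmod 1.5.0) fitted all 9 values taking the individual as random block (estimated correlation 0.388). Tests were two-sided, over all probes, adjusted by Benjamini-Hochberg, threshold 0.05; the script was tested on simulated data. Equal title numbers were read as 1 individual. Deviations from the group means correlated at 0.513, -0.0044 and 0.140 in the 3 pairs, so the values do not settle this reading. Replicates are labelled as biological, with no word on pooling, and p-values measure the spread between them.

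Members were array symbols Olfr with a number from 988 to 1318. Members and lists were chosen with earlier results of these data known. Named were the 8 receptors with the smallest p in each direction and comparison, and the 3 with the largest difference in each direction among those above the noise limit on all arrays. Replicate values are given for the 3 with the smallest p per direction in the first comparison. In the others they are given likewise, except for Olfr1215 and Olfr1302, which were mostly dim, and Olfr1241. Alternatives covered block, normalization, low values, averaging, groups, prior and replicates.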

Additional observations from a re-analysis of the deposited data

How the results depend on the processing

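The median difference of the 153 receptors between the sides stayed above 0 in each alternative, from 0.01 without pair 3 to 0.21 without pair 2. Without pair 3, however, the medians of other receptors (0.03) and of all probes (0.0063) were close to it, with 79 of the 153 above 0. Alternatives that changed only the block, the prior, the groups fitted or the normal replicates could not move this median and say nothing about it. The count of receptors with an unadjusted p under 0.05 between the sides was 15; it was 8 with no replicate block, 9 with median centring and 4 without normalization between arrays, and it was 17 when the pair was a fixed replicate block. With a replicate left out it ranged from 10 (pair 1) to 26 (pair 2). Of the 15, 11 lay higher. It was 9 of 18 without pair 3 and 2 of 4 without normalization. The shares of all probes at that p were not counted for the alternatives, here or in the other comparisons. These counts therefore do not tell the receptors from the array as a whole. Receptors past an adjusted p of 0.05 numbered 1, Olfr1161, without the dimmest 30% of probes, where fewer probes were tested, and 0 in the other alternatives. The count of probes past it, 66, was 0 with the fixed replicate block and without normalization, 3 with no replicate block, 37 with median centring, 10 with both sides alone and 93 with a trend in the variance prior. It was 0, 36 and 9 without pairs 1, 2 and 3, and 38 without normal replicate 1. Quantile normalization on the log2 scale, chosen after seeing the data, gave 66 and an Olfr1161 difference of 1.32 (adjusted p = 0.092).

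Against normal mucosa, the count for the occluded side was 8; it was 4 without normalization, 5 without the dimmest probes and 5 (without pair 2) to 13 (without pair 1) with a replicate left out, and the median ranged from -0.021 to 0.12. For the open side the count was 2. It was 1 with median centring, without the dimmest probes, with the offset of 50, with the 2 groups alone and with the trend, and 1 (without pair 2 or normal replicate 1) to 7 (without pair 1) with a replicate left out. With values under 16 set to 16, Olfr1212 turned to -0.019 and Olfr1278 to 0.025 against normal mucosa on the open side. With the median of arrays Olfr1122 turned to -0.13. With a replicate left out Olfr1090 ranged from -0.15 (pair 1) to 0.57 (pair 3) and Olfr1122 from -0.061 (pair 2) to 0.37 (pair 1). The cause of these changes was not tested. At the floor of 16 some dim receptors had no direction, and since each receptor had 1 probe the mean of probes could not differ. Dim probes, 3 replicates a group and probes that may read relatives limit what can be said of a single receptor.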
